A study of Mus musculus with 8 samples.

Results

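The genes described here encode placental growth factor (Pgf), its relatives Vegfa, Vegfb and Vegfc, the receptors Flt1, Kdr, Tie1 and Tek, and the endothelial proteins Esam and Egfl7. They are 10 of the 18820 genes measured in mouse pancreas, and each had 1 array feature of its own. They were selected on their measured differences on these arrays, with Pgf lower and endothelial genes higher in Sel1L knockout pancreas, so their differences between the groups are a description and carry no test. A group of 4 Sel1L knockout pancreases was set against a group of 4 wild type pancreases, all on the C57BL/6J background. Mice of both groups were fl/fl for Sel1L, with exon 6 between loxP sites. The knockouts were fl/fl;ERCre+, with an estrogen receptor-Cre fusion under an actin promoter, and the controls labelled wild type were their fl/fl;ERCre- littermates. Both received tamoxifen at 8 to 20 weeks of age, 5 μl per g body weight of a 5 mg/ml solution on each of 3 days. The actin promoter is not limited to pancreas or to any of its cell types, and the controls lacked Cre, so loss of Sel1L in acinar cells, loss of Sel1L in vessels or other organs, and Cre activity cannot be told apart. The labels number the samples 1 to 4 per group without saying that each is a separate animal, so the p-values rest on a spread that may be technical. Their array codes carry different letters in the knockout and wild type groups; if the letters mark a position or an order of handling, that and genotype cannot be told apart.

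Vascular endothelial growth factors are secreted dimers that act on receptor tyrosine kinases of endothelial cells. Vegfa binds both Flt1 and Kdr, whereas placental growth factor and Vegfb bind Flt1 and not Kdr, and Vegfc is best known as a ligand of lymphatic vessels. Kdr carries most of the growth signal, and Flt1 binds ligand tightly with weak kinase activity. Tek is the receptor of the angiopoietins and Tie1 its partner receptor; both keep vessels quiescent and stable. In pancreas, Vegfa from epithelial and islet cells maintains the dense capillary bed.

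The labels and the tissue were checked first. Sel1l stood at 11.68, 11.66, 11.70 and 11.45 in knockout replicates 1 to 4, against 12.37, 12.38, 12.38 and 12.40 in wild type replicates 1 to 4 (log2 scale of the deposited array values, here and below). Sel1l thus fell by 0.76 in knockouts (SE 0.0788, limma adjusted p = 0.000196), and the exact two-sided permutation p of 0.0286 is the smallest that 4 against 4 can give. Acinar markers averaged 12.57 to 12.65 in knockout and 12.80 to 12.96 in wild type arrays, near the top of the scale. The defining endothelial markers Pecam1, Cdh5 and Emcn lay at 7.28 or more on every array, whereas Cldn5 lay near the array medians of 4.94 to 5.05. Wild type replicate 2 stood apart from the other arrays: 11 leukocyte markers averaged 5.24 on it and 6.89 to 7.70 on wild type replicates 1, 3 and 4, and 10 stellate cell and fibroblast markers averaged 7.01 on it and 8.62 to 9.05 on those replicates. Sel1L knockout replicate 1 stood above the other knockout arrays on both lists. Its leukocyte mean was 7.36, against 6.28 to 6.58, and its stellate cell mean 8.96, against 7.88 to 8.21. Several of the results below are also given without wild type replicate 2.

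Pgf had the widest separation of the 10 genes. It stood at 5.11, 5.16, 5.04 and 5.16 in knockout replicates 1 to 4, against 8.14, 9.12, 7.62 and 8.54 in wild type replicates 1 to 4. The groups lay 2.45 apart at their nearest values, and knockout arrays were uniform while wild type arrays were not, with means of 5.12 ± 0.0574 and 8.35 ± 0.635 (SD, n = 4 each). The difference was -3.23 (SE 0.259), a 9.40-fold lower level. The highest wild type value came from replicate 2; without that array the difference was -2.98. Among all genes the knockout mean ranked at the 45.3rd percentile of level and the wild type mean at the 87.7th. Detection calls were not used here, so whether the knockout signal exceeds the background of its probes was not tested. In tissue RNA, fewer cells that make Pgf and less Pgf RNA per cell cannot be told apart.

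**Figure D1:**
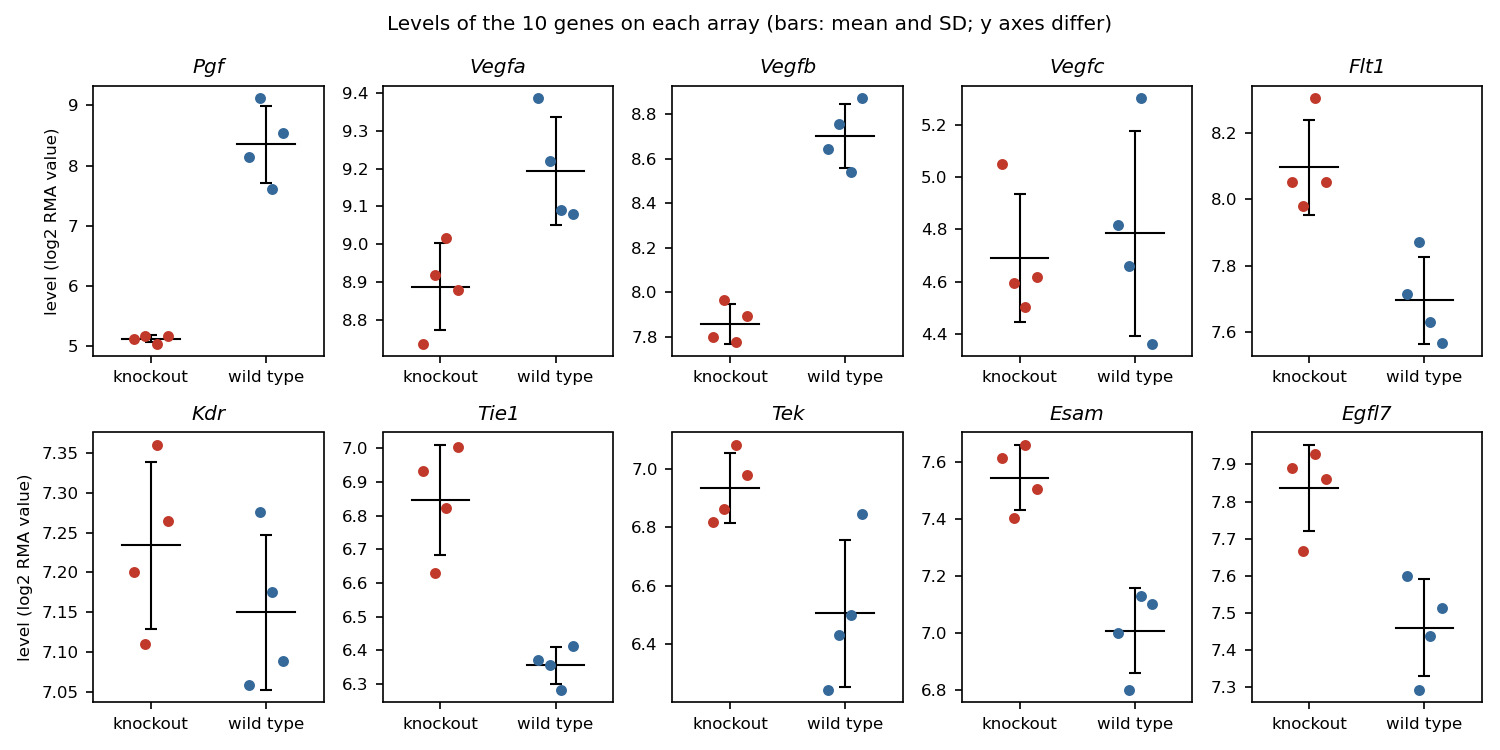
Levels (log2 RMA value, y axis, a separate scale for each gene) of the 10 genes on each array, with 4 Sel1L knockout arrays in red at the left and 4 wild type arrays in blue at the right of each panel; bars give mean and SD. Pgf, Vegfa and Vegfb lie lower in every knockout array than in any wild type array, Flt1, Tie1, Esam and Egfl7 lie higher, and Vegfc, Kdr and Tek overlap.

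The other ligands differed from Pgf in size. Vegfb, a ligand of Flt1 linked to heart and lipid metabolism, stood at 7.80, 7.96, 7.77 and 7.89 in knockout replicates 1 to 4, against 8.65, 8.76, 8.54 and 8.87 in wild type replicates 1 to 4. All knockout arrays were below all wild type arrays, by 0.58 at the nearest values, and the difference was -0.85 (SE 0.0924), or 1.80-fold lower. Vegfa, the principal angiogenic ligand, stood at 8.74, 8.92, 9.02 and 8.88 in knockout replicates 1 to 4, against 9.39, 9.22, 9.09 and 9.08 in wild type replicates 1 to 4. Its groups were separated by only 0.06, and the difference was -0.31 (SE 0.097). Vegfc stood at 5.05, 4.60, 4.50 and 4.62 in knockout replicates 1 to 4, against 4.82, 4.66, 5.30 and 4.36 in wild type replicates 1 to 4. These groups overlapped, the difference of -0.09 (SE 0.193) was smaller than its error, and both group means lay below every array's median. It ranged from -0.23 to 0.08 when each array was left out in turn.

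Ordered by difference, the ligands ran Pgf, Vegfb, Vegfa, Vegfc. Taken within each array, the gap between the differences of Pgf and Vegfb was -2.38 (SE 0.269), and that between Vegfb and Vegfa was -0.54 (SE 0.131), each without overlap of the groups. The gap between Vegfa and Vegfc was -0.21 (SE 0.274), within its error. Pgf and Vegfb thus had the more negative differences of the 4 ligands. The genes were picked on this contrast, so this order is a description, and a link to the receptors they bind was not tested.

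The receptors of these ligands did not follow them. Flt1, the receptor of Pgf and Vegfb, stood at 8.05, 7.98, 8.30 and 8.05 in knockout replicates 1 to 4, against 7.71, 7.87, 7.63 and 7.57 in wild type replicates 1 to 4. Every knockout array was above every wild type array, by 0.11 at the nearest, and the difference was 0.40 (SE 0.0999). The feature reads the gene as a whole and does not separate the membrane receptor of Flt1 from its soluble splice form. Kdr, the main signalling receptor of Vegfa, stood at 7.20, 7.11, 7.36 and 7.26 in knockout replicates 1 to 4, against 7.06, 7.28, 7.18 and 7.09 in wild type replicates 1 to 4. The groups overlapped, and the difference of 0.08 (SE 0.0857) turned to -0.08 after quantile normalization and to -0.06 after cyclic loess.

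Tie1 stood at 6.93, 6.63, 6.82 and 7.002 in knockout replicates 1 to 4, against 6.37, 6.36, 6.28 and 6.41 in wild type replicates 1 to 4. All knockout arrays were higher, and the difference was 0.49 (SE 0.0936), against 0.33 after quantile normalization. Tek stood at 6.82, 6.86, 7.08 and 6.98 in knockout replicates 1 to 4, against 6.24, 6.43, 6.499 and 6.85 in wild type replicates 1 to 4. Its groups overlapped through wild type replicate 4, and the difference was 0.43 (SE 0.127), against 0.27 after quantile normalization. For this pair of partner receptors the gap between the differences was smaller than its error (0.06, SE 0.15).

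The endothelial proteins gave the same direction. Esam, an adhesion molecule of endothelial tight junctions and platelets, stood at 7.61, 7.40, 7.66 and 7.50 in knockout replicates 1 to 4, against 7.001, 6.80, 7.13 and 7.10 in wild type replicates 1 to 4. The groups were separated by 0.27, and the difference of 0.54 (SE 0.0985) was 0.47 without wild type replicate 2. Egfl7, a secreted protein of endothelial cells that guides vessel tube formation, stood at 7.89, 7.67, 7.93 and 7.86 in knockout replicates 1 to 4, against 7.60, 7.29, 7.44 and 7.51 in wild type replicates 1 to 4. Its groups were separated by 0.07, and the difference of 0.38 (SE 0.0944) was 0.21 after quantile normalization. In the order Esam, Tie1, Tek, Flt1, Egfl7 and Kdr, each of the first 5 differed from its neighbour by less than the error of the gap. Only the step between Egfl7 and Kdr, 0.29 (SE 0.117), exceeded it, without overlap of the groups.

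Egfl7 also hosts a microRNA of endothelial cells, whose mature RNA is shown because its precursor had a feature of its own on the array. The sequence is from RefSeq (GRCm38.p6, plus strand, chr2:26591402-26591423, inside the annotated Egfl7 gene), with the seed, bases 2 to 8, in capitals.
mmu-miR-126a-3p: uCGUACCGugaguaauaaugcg
The feature of its precursor, looked up after the data had been seen, lay far down the scale at 2.99 ± 0.286 in knockout and 2.94 ± 0.339 in wild type arrays (SD, n = 4 each). Its difference was 0.05 (SE 0.186, limma adjusted p = 0.847), against 0.38 for Egfl7. A signal this low, below every array's median, cannot show whether the precursor followed Egfl7. A feature on the precursor does not measure the mature microRNA.

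Of the 10 genes, 8 passed the threshold of the fit over all genes (adjusted p under 0.05), 5 of them higher and 3 lower, where 28.7% of all genes passed, 16.1% higher and 12.6% lower. Separation without overlap was seen in 7 of the 10, and in 32.2% of all genes. Because the choice of the genes used this contrast, nothing is read from these counts. After quantile normalization or cyclic loess 5 of the 10 passed, 2 higher (Tie1 and Esam) and 3 lower. Centring arrays on their medians left out Tek. Leaving out 1 array also ended passes: Tek did not pass without Sel1L knockout replicate 2, 3 or 4 or wild type replicate 1, 2 or 3, and Egfl7 did not pass without Sel1L knockout replicate 3. Vegfa did not pass without Sel1L knockout replicate 1, 2 or 4 or wild type replicate 1 or 2, nor with array weights or a replicate block.

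A set of 30 other endothelial markers, none of them among the 10, showed how far the pattern extended. Of these, 5 rose and 0 fell, which is 16.7% of the list and close to the 16.1% of all genes that were higher. Their median difference was 0.25, against -0.04 for all genes and 0.13 for all genes above the median level, and 25 of 30 had a higher knockout mean. Podxl, a sialomucin of endothelial and epithelial surfaces, rose by 0.74 (SE 0.105, limma adjusted p = 0.00104). Calcrl, a receptor of adrenomedullin, rose by 0.81 (SE 0.214), Emcn, a sialomucin of capillaries and veins, by 0.52 (SE 0.144), Pecam1, an adhesion molecule of all endothelium, by 0.47 (SE 0.136), and Clec14a by 0.62 (SE 0.191), with limma adjusted p-values of 0.0203 to 0.0359. Pecam1 stood at 8.14, 7.95, 8.09 and 7.98 in knockout replicates 1 to 4, against 7.41, 7.28, 7.92 and 7.68 in wild type replicates 1 to 4. Of the other defining markers, Cdh5, the cadherin of endothelial junctions, had a difference of 0.30 (SE 0.113, limma adjusted p = 0.0715) and Cldn5 one of -0.02 (SE 0.188).

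The endothelial count changed when single arrays were left out. It was 1 of 30 higher without Sel1L knockout replicate 3, 2 without Sel1L knockout replicate 4, 3 without Sel1L knockout replicate 2 or wild type replicate 4, and 11 without wild type replicate 3. Without wild type replicate 2 it was 4, with a list median of 0.17. Without any other single array the list median was 0.21 to 0.28. Higher calls over all genes fell as well, from 3027 to 2204 without Sel1L knockout replicate 3. Quantile normalization left 1 higher and 1 lower, with a median of 0.10. The calls of Pecam1, Emcn, Calcrl and Clec14a were each lost without 3 to 6 of the 8 arrays, where adjusted p-values were 0.0504 to 0.0975 and the differences 0.37 to 0.80. The call of Podxl held in all 17 alternatives. The list mean lay at 6.52 to 6.66 in knockout arrays, against 6.16 in wild type replicate 2 and 6.37 to 6.57 in wild type replicates 1, 3 and 4.

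Subtracting that list mean within each array lowers all 10 differences by the same 0.23 and leaves the gaps between the genes as they were; what it can change is the overlap of the groups. Pgf then differed by -3.46, Vegfb by -1.08 and Vegfa by -0.54, again without overlap of the groups. Esam remained higher in every knockout array, by 0.30 on average, at 0.94 ± 0.0622 in knockout and 0.63 ± 0.071 in wild type arrays (SD, n = 4 each). The groups of Tie1 (0.26), Tek (0.20), Flt1 (0.17), Egfl7 (0.14), Kdr (-0.15) and Vegfc (-0.33) overlapped.

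**Figure D2:**
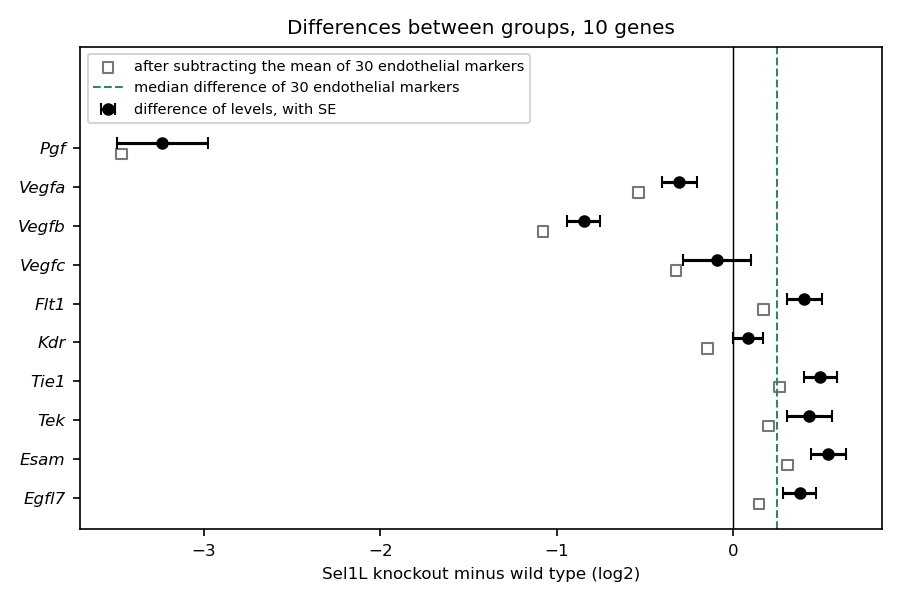
Sel1L knockout minus wild type differences (log2, x axis) of the 10 genes. Filled circles give the difference with its SE, open squares the difference after subtracting the mean of 30 endothelial markers in each array, and the dashed line the median difference of those markers (0.25). Pgf lies at -3.23, and the 6 receptor and endothelial genes lie between 0.08 and 0.54.

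Markers of the other cells of the vessel wall and stroma went both ways. Of 11 mural cell markers, genes of pericytes and smooth muscle, 3 rose and 0 fell, with a median of -0.02. That is 27.3% of the list, against 28.7% of all genes. Without Sel1L knockout replicate 3 or wild type replicate 1 none rose, and without wild type replicate 2, 2 rose and 1 fell, with a median of -0.20. With another single array left out the count was 1 or 2, and after quantile normalization 1 rose and 4 fell. The calls of Cnn1 and Notch3 were lost in 9 of 16 and 13 of 17 alternatives. Cnn1 averaged 3.38 in knockout and 3.12 in wild type arrays, below every array's median. Rgs5, a pericyte regulator of G protein signalling, rose by 0.56 (SE 0.151, limma adjusted p = 0.0216), while Acta2, smooth muscle actin, differed by -0.51 (SE 0.212, limma adjusted p = 0.0965). The call of Rgs5 was lost without Sel1L knockout replicate 1 (0.49), Sel1L knockout replicate 3 (0.53) or wild type replicate 1 (0.54), with adjusted p-values of 0.0509 to 0.0603. Among 5 lymphatic markers 1 rose, Prox1, by 1.00 (SE 0.179, limma adjusted p = 0.00341); Lyve1, a hyaluronan receptor of lymphatic vessels, differed by -0.30 (SE 0.38, limma adjusted p = 0.571), and by -0.61 without wild type replicate 2. This 1 call was 20% of the lymphatic list, against 28.7% of all genes. Prox1 is also a transcription factor of pancreatic epithelium.

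The leukocyte list had 0 of 11 genes past the threshold, and its mean spanned 6.28 to 7.36 in knockout and 5.24 to 7.70 in wild type arrays. For stellate cells and fibroblasts 0 of 10 passed, with means of 7.88 to 8.96 in knockout and 7.01 to 9.05 in wild type arrays. On both lists knockout replicates 2, 3 and 4 lay below wild type replicates 1, 3 and 4. The groups overlapped through knockout replicate 1 and wild type replicate 2. The islet list had 1 of 9 higher, Ppy, and 1 lower, Pcsk1; the call of Ppy was lost in 9 of 17 alternatives, 5 of them without 1 array (Sel1L knockout replicate 2, 3 or 4, or wild type replicate 1 or 3). The islet mean spanned 7.45 to 8.90 in knockout and 7.43 to 8.78 in wild type arrays. All 9 islet markers lay above the array medians on every array. Of 8 acinar markers 4 fell and 0 rose, with a median of -0.24, among them Bhlha15, an acinar transcription factor, by 0.76 (SE 0.084, limma adjusted p = 0.000274). The calls of Cel and Cpb1 were each lost in 1 of 17 alternatives (limma adjusted p = 0.299 and 0.364), in neither case by leaving out an array. The duct list had 1 of 6 lower, Muc1, the adipocyte list 0 of 6 past the threshold, the red cell and platelet list 1 of 6 lower, Slc4a1, and the mesothelial list 0 of 4. Called genes made up 50% of the acinar list, where 28.7% of all genes were called and 12.6% were lower. They made up 22.2% of the islet list, and 16.7% each of the duct and of the red cell and platelet lists. The part of tissue composition in the differences of the 10 genes was not tested.

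**Figure D3:**
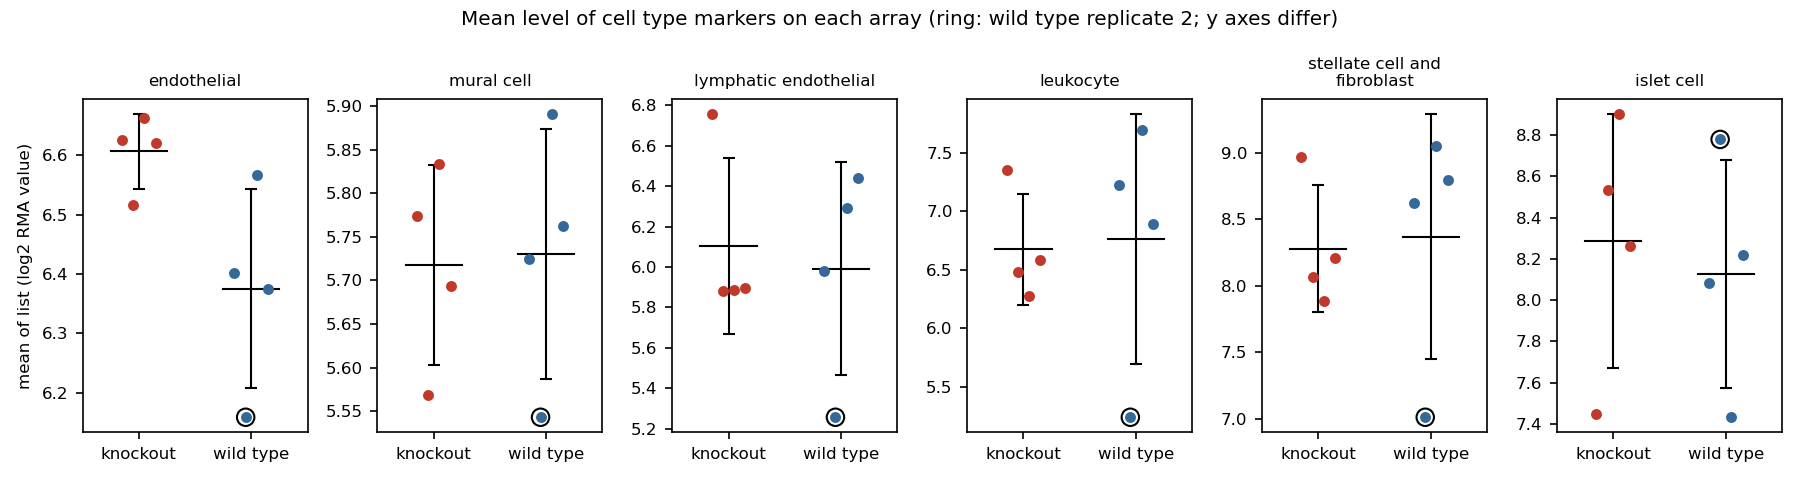
Mean level (log2 RMA value, y axis, a separate scale for each list) of 6 lists of cell type markers on each array, with Sel1L knockout in red at the left and wild type in blue at the right; bars give mean and SD, and a ring marks wild type replicate 2. The endothelial mean lies at 6.52 to 6.66 in knockout arrays and at 6.16 to 6.57 in wild type arrays. The leukocyte and stellate cell means overlap through knockout replicate 1 and wild type replicate 2.

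Other genes of the same signalling pathway went both ways. Of 18 further genes of VEGF and angiopoietin signalling, 3 rose and 1 fell, or 22.2% of the list against 28.7% of all genes, with a median of 0.13; without wild type replicate 2, 4 rose and 1 fell, with a median of 0.02. Nrp1, a co-receptor of Vegfa and Pgf, stood at 9.30, 8.99, 9.04 and 8.68 in knockout replicates 1 to 4, against 8.38, 7.73, 8.60 and 8.31 in wild type replicates 1 to 4. All knockout values were the higher, and the rise was 0.75 (SE 0.187, limma adjusted p = 0.0162). Plcg1, the phospholipase recruited by activated Kdr, rose by 0.46 (SE 0.0738, limma adjusted p = 0.00203). Ptprb, the phosphatase that restrains Tek, rose by 0.36 (SE 0.0793, limma adjusted p = 0.00886); after cyclic loess its difference was 0.23 and its adjusted p = 0.0587.

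Angpt1, the activating ligand of Tek, fell by 0.79 (SE 0.207, limma adjusted p = 0.0193). It stood at 5.74, 6.29, 5.42 and 5.29 in knockout replicates 1 to 4, against 6.58, 6.18, 6.45 and 6.69 in wild type replicates 1 to 4, and the groups overlapped through knockout replicate 2. It no longer passed when Sel1L knockout replicate 3 (-0.70) or 4 (-0.66) or wild type replicate 1 (-0.76) was left out, with adjusted p-values of 0.05 to 0.0582. The receptor Tek and its ligand Angpt1 thus had differences of opposite sign, as did Flt1 and its ligands. Flt4, the receptor of Vegfc, was among the 14 genes of this list that did not pass.

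In the PDGF family, whose ligands share the fold of the VEGFs, 2 of 6 rose and 0 fell, but 2 fell after quantile normalization, median centring or cyclic loess and with trend and robust variance. In the main fit the called genes were 33.3% of the list, against 28.7% of all genes. The list median was 0.19, and -0.05 without wild type replicate 2. Pdgfd rose by 0.68 (SE 0.0991, limma adjusted p = 0.00119) and Pdgfc by 1.02 (SE 0.265, limma adjusted p = 0.019), the second without a call when Sel1L knockout replicate 3 was left out (0.98, adjusted p = 0.0529). The classical ligand genes Pdgfa and Pdgfb had differences of -0.37 (SE 0.126, limma adjusted p = 0.0531) and -0.38 (SE 0.142, limma adjusted p = 0.068). After quantile normalization these were -0.48 and -0.55, with adjusted p-values of 0.025 and 0.0176.

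Among 15 genes of Notch, ephrin and apelin signalling in vessels, 3 rose and 3 fell, or 40% of the list against 28.7% of all genes. The median was 0.08, which was 0.03 without wild type replicate 2 and -0.07 after quantile normalization. Sema3c, a secreted semaphorin that binds neuropilins, rose by 1.08 (SE 0.0816, limma adjusted p = 3.92e-05), and Efnb2, an ephrin of arterial endothelium, by 0.57 (SE 0.0915, limma adjusted p = 0.00207). Apln, the peptide apelin made by endothelial tip cells, fell by 0.66 (SE 0.0887, limma adjusted p = 0.000759), and Notch1 fell by 0.79 (SE 0.126, limma adjusted p = 0.00194). These 4 calls held in all 17 alternatives. Notch1 is also expressed by epithelial cells.

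Oxygen sensing is the best known control of Vegfa and acts on Flt1 as well. Of 11 HIF subunits and oxygen sensors 3 rose (Epas1, Hif1an and Hif1a) and 2 fell (Egln1 and Cited2). That is 45.5% of the list, against 28.7% of all genes. The call of Hif1a was lost in 10 of 17 alternatives, 6 of them without 1 array, among them wild type replicates 1 and 2 and all 4 knockout replicates. That of Cited2 was lost without Sel1L knockout replicate 1 or 4, and that of Hif1an after quantile normalization and cyclic loess. Epas1, the HIF subunit abundant in endothelium, rose by 0.46 (SE 0.0959, limma adjusted p = 0.00685), and Egln1, the prolyl hydroxylase that marks HIF for degradation, fell by 0.44 (SE 0.0952, limma adjusted p = 0.00848). Of 24 HIF targets 5 rose and 5 fell, with a median of -0.13. The share called was 41.7%, against 28.7% of all genes. The counts were 5 and 7 without wild type replicate 2, 5 and 3 without Sel1L knockout replicate 2, and 6 and 3 without Sel1L knockout replicate 4. Among those that rose were Ero1a by 1.30 (SE 0.117), Ddit4 by 1.18 (SE 0.182), Pfkfb3 by 1.13 (SE 0.109) and Car9 by 0.57 (SE 0.0922), with limma adjusted p-values of 0.0021 or less. Ero1a, an oxidase of the endoplasmic reticulum, and Ddit4, an inhibitor of mTORC1 signalling, are also induced by endoplasmic reticulum stress. The 5 that fell, named after their values were seen, were P4ha2, Pdk1, Ankrd37, Slc2a1 and Pfkfb4, with differences of -0.66 to -0.39; the calls of Slc2a1 and Pfkfb4 were each lost without 3 or 4 of the arrays, at adjusted p-values of 0.0559 to 0.0667. The called HIF targets went both ways, and a part of oxygen sensing in the differences of Vegfa and Flt1 was not tested.

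Of 4 metal response genes 3 fell and 0 rose, where 12.6% of all genes were lower. The list was included because metal-responsive transcription factor Mtf1 is known to drive Pgf in mouse fibroblasts under low oxygen. Like the other lists, it was chosen with earlier results of these data known, and a link to the fall of Pgf was not tested. Mt1, a metallothionein that binds zinc, stood at 11.77, 11.52, 11.52 and 11.11 in knockout replicates 1 to 4, against 12.24, 12.35, 12.41 and 12.19 in wild type replicates 1 to 4, and fell by 0.81 (SE 0.131, limma adjusted p = 0.00201). Mt2 fell by 0.79 (SE 0.198, limma adjusted p = 0.0161), and the zinc exporter gene Slc30a1 by 0.59 (SE 0.139, limma adjusted p = 0.012). The groups of all 3 genes did not overlap, and their calls held in all 17 alternatives. Mtf1 itself differed by -0.03 (SE 0.0806, limma adjusted p = 0.824). Acinar cells hold much metallothionein and acinar markers were lower as well, with means of 12.57 to 12.65 in knockout and 12.80 to 12.96 in wild type arrays; their part in these falls was not tested.

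Secreted regulators of vessels outside these families made up the remaining lists. Of 10 angiogenesis inhibitors 1 fell, Vash2, and of 15 other angiogenic factors 2 fell, Hbegf and Gdf2. That is 10% and 13.3% of the lists, against 28.7% of all genes. Only 7 and 6 of their genes lay above the array median on all 8 arrays. Vash2 averaged 4.10 in knockout and 4.43 in wild type arrays, and Gdf2 2.69 and 3.11, below every array's median. Hbegf, a ligand of the EGF receptor, fell by 0.64 (SE 0.0858, limma adjusted p = 0.000794) in all 16 alternatives that tested it. The calls of Vash2 and Gdf2 were lost in 7 and 11 alternatives, among them those without wild type replicate 2 (differences of -0.29 and -0.30). Thbs1, the inhibitor thrombospondin, had a difference of 0.33 (SE 0.166, limma adjusted p = 0.156), and of 0.19 without wild type replicate 2.

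**Figure D4:**
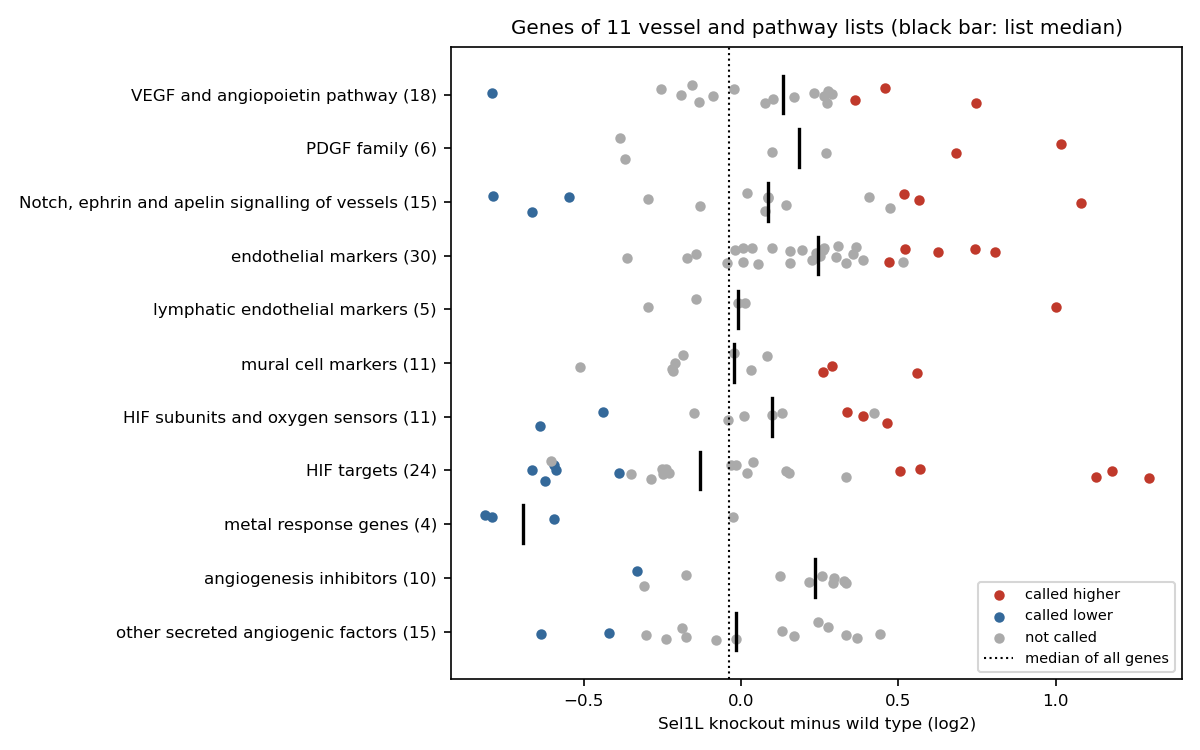
Sel1L knockout minus wild type differences (log2, x axis) of each gene of 11 lists, with the number measured in brackets. Red points rose, blue points fell and grey points did not pass the threshold; black bars give list medians and the dotted line the median of all genes (-0.04). The endothelial median is 0.25 with 5 red points, and the metal response list has 3 blue points of 4.

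The genes most like Pgf over the 8 arrays were named by Pearson correlation, as a description in which the difference between the groups weighs most. They were Bsg (r = 0.995), Map2 (r = 0.995), Smim24 (r = 0.995), Dpp7 (r = 0.993) and Dagla (r = 0.993). All 5 had lower knockout means, with differences of -0.53, -0.77, -4.19, -2.10 and -1.81 in that order, and all shared the wild type order of Pgf at its ends, with the highest value in replicate 2 and the lowest in replicate 3. For the mean correlation with Flt1, Kdr, Tie1, Tek, Esam and Egfl7, the leading genes were Me2 (r = 0.856), Txndc5 (r = 0.851), Agrn (r = 0.849), Impdh1 (r = 0.848) and Mdh1 (r = 0.847). None of these 5 is on the endothelial list, and their differences were 0.36, 0.33, 0.34, 0.36 and 0.55.

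Promoter sequence was looked at for motifs of these controls. RefSeq starts (GRCm38.p6) were matched for 9 of the 10 genes, all but Esam, with 13 starts in all. The 250 bases before each start were searched on both strands for the hypoxia response cores ACGTG and GCGTG, for the ETS motif CCGGAA of endothelial promoters, and for the metal response motif, TGCACNC or TGCGCNC. Among 32851 such windows of all genes, 16.6% held ACGTG, 28.2% GCGTG, 12.03% CCGGAA and 21.4% the metal response motif. The windows of Pgf and Vegfb are shown because these ligands had the most negative differences, and those of Flt1 and Kdr because these related receptors differed. All are on the minus strand, at chr12:85177314-85177563, chr19:6987652-6987901, chr5:147726012-147726261 and chr5:75978456-75978705. Capitals mark the matches, and no match shares a base with another.
Pgf: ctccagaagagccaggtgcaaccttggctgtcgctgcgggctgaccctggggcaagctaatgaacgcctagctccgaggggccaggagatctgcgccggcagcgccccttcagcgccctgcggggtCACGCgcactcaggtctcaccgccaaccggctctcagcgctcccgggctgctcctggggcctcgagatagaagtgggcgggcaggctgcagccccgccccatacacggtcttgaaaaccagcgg
Vegfb: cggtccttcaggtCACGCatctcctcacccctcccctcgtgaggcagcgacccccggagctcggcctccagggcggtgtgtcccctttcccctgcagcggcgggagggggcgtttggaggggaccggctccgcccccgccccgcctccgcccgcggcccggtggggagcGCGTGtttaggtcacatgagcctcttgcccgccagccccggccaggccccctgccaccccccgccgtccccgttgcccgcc
Flt1: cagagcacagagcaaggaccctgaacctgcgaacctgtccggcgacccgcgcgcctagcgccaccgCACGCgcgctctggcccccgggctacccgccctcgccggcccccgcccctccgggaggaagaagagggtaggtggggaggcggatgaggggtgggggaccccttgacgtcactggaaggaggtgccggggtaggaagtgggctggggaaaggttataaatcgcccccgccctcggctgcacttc
Kdr: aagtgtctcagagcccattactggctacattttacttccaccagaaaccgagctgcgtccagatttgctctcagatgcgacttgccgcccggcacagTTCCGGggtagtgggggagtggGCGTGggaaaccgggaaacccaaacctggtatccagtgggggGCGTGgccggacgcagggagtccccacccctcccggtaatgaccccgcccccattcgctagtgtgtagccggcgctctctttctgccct
Pgf had 1 match of GCGTG and Vegfb 2, read on either strand. Flt1 had 1 match of GCGTG, and Kdr had 2 matches of GCGTG and 1 of CCGGAA. Of the Vegfa windows, 1 held 1 match of the metal response motif and no GCGTG, and the other 1 match each of ACGTG and GCGTG. The windows of Vegfc, Tie1 and Egfl7 held no match of any motif, and that of Tek 1 of the metal response motif. The second Pgf window held none, and the metal response motif was in neither Pgf window, while the windows of Mt1, Mt2 and Slc30a1 held 1, 3 and 1 matches. A match is only a run of letters, and its absence from a window of this length says nothing of the factor.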

How the data were processed

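RNA of 8 mouse pancreas samples, 4 Sel1L knockout and 4 wild type, was measured on whole-transcript arrays, per the labels' protocols. The authors deposited log2 values made with RMA, per the submitters' processing notes; versions and build: not given in the sources used here. No header names the log base, which was read from the range of 0.965 to 14.37. Of 35556 features, 21218 had 1 gene symbol in GEO's platform annotation, and the feature with the highest mean was kept per gene, which left 18820 genes. Dim genes were kept. limma 3.58.1 tested genotype (eBayes after lmFit, 6 residual degrees of freedom) in R 4.3.3, with Benjamini-Hochberg adjustment over all genes and a threshold of 0.05. Differences are Sel1L knockout minus wild type, with moderated standard errors. Gaps between genes used differences within arrays.

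The number of arrays limits the precision. The members and lists were chosen with earlier results of these data known. Open to naming were all 10 members and up to 4 called and 2 uncalled genes of each of 19 lists. The 5 genes most like Pgf, the 5 most like the receptors and endothelial genes, and Sel1l were open to naming too. Not all of these genes are named here. Cdh5 and Cldn5 were named as defining endothelial markers. Others were chosen after their values were seen, among them Clec14a, Flt4, Hif1a, the HIF targets that fell and the precursor feature. In simulated data of 4 against 4 arrays, 200 genes of 18820 were changed. Those changed by 0.5 (log2) were recovered at 34.0% and those changed by 1 at 91.0%, and 3 of 128 calls were false. In the measured data 5406 genes were called, and more calls loosen the p-value cut-off. The simulated rates therefore do not describe the measured comparison. Same-numbered samples did not deviate together (correlations of 0.22, 0.15, -0.27 and -0.02), so no pairing was used. Figures were drawn with matplotlib 3.10.9.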

Additional observations from a re-analysis of the deposited data

Results flagged for a closer look

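In 19 of 220 groups of 4 arrays 1 value stood apart from the other 3 by more than Dixon's limit; chance gives about 1 in 20. None of the 10 genes was among them. Wild type replicate 2 stood apart for Fn1, the gene of fibronectin (6.73, against 10.84 to 11.46 on wild type replicates 1, 3 and 4), for Upk3b (5.51, against 6.33 to 6.44) and for Slc4a1 (4.57, against 4.91 to 4.93). Sel1L knockout replicate 1 stood apart for Cav1 (8.97, against 8.42 to 8.51), Efnb2 (6.47, against 6.18 to 6.21), Hif3a (4.94, against 5.54 to 5.60), Slc16a3 (5.67, against 4.54 to 4.66) and Slc4a1 (4.46, against 4.07 to 4.12). Sel1L knockout replicate 2 did so for Pdk1 (8.09, against 7.57 to 7.63), and Sel1L knockout replicate 3 for Cel (13.40, against 13.27 to 13.28) and Dagla (6.74, against 6.98 to 6.98). Sel1L knockout replicate 4 did so for Sel1l itself (11.45, against 11.66 to 11.70) and for Apln (5.37, against 5.49 to 5.49). Wild type replicate 3 stood apart for Ero1a (8.57, against 8.19 to 8.21), Pfkfb4 (5.55, against 5.197 to 5.24) and Kcnj8 (5.96, against 5.62 to 5.66), wild type replicate 1 for Pfkfb3 (6.19, against 6.39 to 6.42), and wild type replicate 4 for Mt2 (12.92, against 13.19 to 13.24) and Alas2 (6.88, against 5.45 to 5.65).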

How the results depend on the processing

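The 10 differences kept their sign in all alternatives except Kdr and Vegfc, which were not called. Pgf ranged from -3.48 to -2.98, Vegfb from -0.98 to -0.79, Vegfa from -0.43 to -0.24, Esam from 0.37 to 0.58, Tie1 from 0.33 to 0.56, Tek from 0.27 to 0.54, Flt1 from 0.26 to 0.46 and Egfl7 from 0.21 to 0.43. Of 51 called genes followed, 30 kept their call in every alternative that tested them and 21 lost it in at least 1.

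Over all genes 3027 were higher and 2379 lower. Higher genes numbered 1815 after quantile normalization and 1987 after cyclic loess; lower genes numbered 3969 after median centring of arrays and 1163 when only genes above the median level were tested. Leaving out 1 array gave 2204 to 2856 higher and 1517 to 2371 lower, the lowest without Sel1L knockout replicate 3. Endothelial markers that were higher numbered 5, against 1 after quantile normalization, 2 after cyclic loess, 8 with trend and robust variance and 8 with the replicate block, and 1 to 11 without 1 array. Those that were lower numbered 0, against 1 each after quantile normalization, median centring, cyclic loess and with the replicate block, and 0 to 1 without 1 array. VEGF and angiopoietin genes that were lower numbered 1, against 2 after median centring and 0 to 1 without 1 array; those higher numbered 3, against 2 after cyclic loess and 3 to 4 without 1 array. The other 9 lists together had 17 higher and 16 lower of 101, with 11 to 17 and 12 to 18 without 1 array, and 12 and 24 after quantile normalization, 13 and 23 after median centring and 12 and 19 after cyclic loess. In the main fit 32.7% of these 101 genes were called, against 28.7% of all genes. The replicate block is no pairing by design and is given as a count only. Among uncalled genes, Pdpn ranged from -0.55 to 0.18 without 1 array and turned positive without wild type replicate 3; Mtf1 ranged from -0.059 to 0.0052 without 1 array, positive without Sel1L knockout replicate 1 (0.0046) or 4, and was -0.19 after quantile normalization, -0.17 after cyclic loess and -0.10 after median centring, uncalled in each. The cause of these changes was not tested.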
